A study of Mus musculus with 17 samples.

Results

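Cell division genes were followed through single pancreatic islet cells of mice, from the first days after birth into adult life and through the months after a toxin that kills beta cells. The set holds 40 genes of the 40824 in the deposited table of unique molecular identifiers (UMIs, one count per captured RNA molecule). They are a list of names and no value enters the rule: 22 act in mitosis, 16 act in DNA replication, and Stmn1 and Hmgb2 act beside them. All 40 were found. A cell was counted as cycling where UMIs of at least 5 of the 40 genes were present, which held for 897 of the 2999 cells with all their UMIs and for 323 of 2870 cells when each cell was brought to the same depth of 20000 UMIs. The second count is used below unless stated otherwise, because deeper cells show more genes.

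A cell that commits to division first raises the E cyclins Ccne1 and Ccne2, which activate Cdk2. Cdc6 and Cdt1 load the ring-shaped helicase built of Mcm2, Mcm3, Mcm4, Mcm5, Mcm6 and Mcm7 onto DNA, Cdc45 and the GINS subunit Gins2 complete the active helicase, the sliding clamp Pcna holds the polymerases on DNA, and Tyms, Rrm1 and Rrm2 make the nucleotides. Cyclins Ccna2, Ccnb1 and Ccnb2 then drive Cdk1 into mitosis, where Top2a untangles chromosomes, the kinases Aurka, Aurkb, Plk1, Bub1 and Bub1b and the motors Kif11, Kif23 and Cenpe build the spindle and watch it, and Cdc20 and Ube2c direct the destruction of the cyclins. In rodents beta cells divide often around birth and rarely in the adult, and cyclin D2 is the D cyclin that mouse beta cells depend on most.

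The series asked in which transcriptional state islet endocrine cells are found after streptozotocin (STZ, a sugar-linked toxin that enters beta cells through the glucose transporter Slc2a2), with young mice included to judge beta cell maturity. Single cells were sequenced by a modified STRT-seq protocol, which reads the tagged ends of transcripts. All mice carried Ngn3-Cre and Rosa-RFP, so that descendants of Ngn3-expressing endocrine progenitors are red, and RFP+ pancreas cells were sorted; the protocol also names Ins1-RFP+ cells. Cells were moved by mouth pipette and chosen by a qPCR for Gapdh, so the shares of cell types are those of chosen cells. The control group holds 3 libraries of male mice given citrate buffer, age-matched to the treated mice. Male mice of 2 months, fasted overnight, received STZ once at 200 mg/kg into the peritoneum and then insulin implants. They gave 8 libraries: 1 at day 6 (D6), 2 at day 12 (D12), and 1 each at day 30 (D30), day 42 (D42), month 2 (M2), month 5 (M5) and month 9 (M9); at month 9 the implants had been discontinuous in the last 2 months. A further 2 libraries came from mice at month 2 after STZ without implants. Untreated young mice gave 1 library at postnatal day 3 (P3), 2 at day 12 (P12) and 1 at day 21 (P21). The labels do not say whether libraries of a group come from separate animals, so p-values over libraries measure the spread between libraries, which may be technical.

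Libraries held 22 to 295 cells and 1420536 to 26298456 UMIs, with library medians of 36134 to 77147 UMIs per cell; 2870 of the 2999 cells reached 20000 UMIs. Each cell was assigned to the class whose hormone was highest in the authors' normalized signal, a UMI count per 100000 UMIs outside 8 hormone genes: Ins1 plus Ins2 for beta, Gcg for alpha, Sst for delta, Ppy for PP, or the sum of 12 acinar enzyme genes. This gave 1042 beta, 572 alpha, 247 delta, 204 PP and 913 acinar cells, with 21 cells of other classes. The labels do not name acinar cells among the sorted ones. Counted where any UMI was present, the median number of own markers was 8 of 9 in beta, 7 of 8 in alpha and 6 of 7 in delta cells. The marker lists can hold the hormone that set the class, as the delta list holds Sst. The median of 12 of 12 in acinar cells is of the same genes that set that class, so it is no separate check. The PP class carried fewer, with a median of 3 of 5 in the 179 PP cells that did not count as cycling. Every alpha, delta and PP cell of the control mice at that depth also had an insulin value of at least 1000 on that scale, and doublets were not called, so a second cell or free RNA in a well cannot be told apart from co-expression.

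The promoters of the 2 roles differ in letters, which is shown first because the results below also split by role. Known regulators of these genes bind the cell cycle homology region (CHR) and CCAAT boxes in mitosis genes and E2F sites in replication genes. A search of both strands of 300 bases around the annotated start (250 before and 50 after, RefSeq on GRCm38.p6, overlapping matches counted separately) covered the 33 members with an entry, out of 27025 genes. The CHR letters TTTGAA were in 14 of 19 mitosis members (73.7%), in 2 of 13 replication members (15.4%) and in 20.2% of all genes. The letters CCAAT were in 17 of 19 mitosis members (89.5%), 9 of 13 replication members (69.2%) and 41.1% of all genes. An E2F site, taken as TTTCCCGC, TTTGGCGC, TTTCGCGC or TTTGCCGC, was in 1 of 19 mitosis members (5.26%), 6 of 13 replication members (46.2%) and 2.6% of all genes. A match describes letters only and shows no binding. The 150 bases before the start are printed for 3 mitosis genes (Top2a, chr11:99024190-99024339; Cdk1, chr10:69352913-69353062; Cdc20, chr4:118437344-118437493, all on the minus strand) and for 2 subunits of the replicative helicase (Mcm6, chr1:128359706-128359855, minus strand; Mcm5, chr8:75109359-75109508, plus strand). They read 5′ to 3′ on the gene's strand, and capitals mark the matches, with TTCAAA and ATTGG as matches on the other strand:
Top2a: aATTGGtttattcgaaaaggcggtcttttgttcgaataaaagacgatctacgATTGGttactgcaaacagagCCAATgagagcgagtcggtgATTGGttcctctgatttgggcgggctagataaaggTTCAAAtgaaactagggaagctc
Cdk1: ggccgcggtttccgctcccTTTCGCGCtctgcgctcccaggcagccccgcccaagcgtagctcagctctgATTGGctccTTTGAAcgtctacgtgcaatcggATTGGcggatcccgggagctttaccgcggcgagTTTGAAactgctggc
Cdc20: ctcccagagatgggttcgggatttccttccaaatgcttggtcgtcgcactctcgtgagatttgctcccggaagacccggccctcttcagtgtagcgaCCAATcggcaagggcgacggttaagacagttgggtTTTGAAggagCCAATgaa
Mcm6: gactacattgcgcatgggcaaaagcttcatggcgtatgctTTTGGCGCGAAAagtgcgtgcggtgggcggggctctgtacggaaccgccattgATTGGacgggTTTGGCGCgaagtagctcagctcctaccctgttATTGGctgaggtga
Mcm5: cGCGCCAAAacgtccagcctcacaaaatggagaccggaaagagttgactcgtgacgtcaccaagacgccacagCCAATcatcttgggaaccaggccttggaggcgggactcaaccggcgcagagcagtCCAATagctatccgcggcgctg
The pair of helicase promoters holds no CHR letters in these stretches. The same stretch of the mitosis gene Ccnb2, not printed here, also holds none, although its 300 bases hold 2 matches. Cdk1 was the mitosis member with an E2F match.

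Mitosis members were found in few cells and replication members in many. Over all 2999 cells, a UMI of a mitosis member was present in 1.80% (Bub1) to 9.14% (Top2a) of cells, with a median of 5.08%. Replication members reached 2.37% (Cdc6, the loader of the helicase) to 56.2% (Pcna), with a median of 12.6%. Stmn1, which destabilises microtubules, had a UMI in 23.9% of cells, and Hmgb2, a chromatin protein of dividing cells, in 38.5%.

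How often a UMI was found in cycling and in other cells also differed by role. At 20000 UMIs, mitosis members were found in a median of 17.9% of cycling beta cells, 0.948% of other beta cells and 0% of the control mice's delta and PP cells, which serve as a background of free RNA and resting cells. The same medians for replication members were 28.9%, 6.99% and 6.25%. The cycling and other beta cells were split by these same genes, so the first 2 values of each trio are a description. Pcna was present in 36.7% of the beta cells that did not count as cycling and in 21.9% of the control delta and PP cells, Hmgb2 in 22.6% and 31.2%. Mki67, the proliferation antigen, was present in 2.73% and 0% of them, and Cdk1 in 1.54% and 0%. A UMI of Pcna or Hmgb2 was thus common in the control delta and PP cells, which the rule did not split. None of Mki67 or Cdk1 was found there. These are only 16 delta and 16 PP cells, and 0 of 16 in a class allows up to 18.8% (3 cells over 16). The 2.73% and 1.54% of other beta cells lie below that limit, so a lower background of these genes is not shown. In the other beta cells the rule itself lowers these values.

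Cycling beta cells were most frequent in young mice. The share was 137 of 400 beta cells (34.2%, exact 95% binomial interval 29.6 to 39.1%) in the postnatal libraries, 28 of 379 (7.39%, 4.97 to 10.5%) in controls and 11 of 230 (4.78%, 2.41 to 8.4%) after STZ with implants. These intervals cover counting error only. In the control mice's delta and PP classes, 0 of 16 cells each counted as cycling.

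At P3, 91 of 151 beta cells counted as cycling (60.3%, interval 52.0 to 68.1%), a share that depends on depth and on the number of members asked for: it was 30.3% at 10000 UMIs, 41.2% at 10000 UMIs outside the hormone genes, 29.1% at 8 members and 90.3% with all UMIs. The P12 libraries held 7 of 63 (11.1%) and 10 of 66 (15.2%), and P21 held 29 of 120 (24.2%, 16.8 to 32.8%). Control replicates 1, 2 and 3 held 21 of 221 (9.5%), 7 of 137 (5.11%) and 0 of 21, the last allowing up to 14.3%. What a count of 0 allows is given as 3 cells over the number counted, unless an exact interval is named. Every postnatal library thus lay above every control library, with the P12 libraries nearest to the controls and P3 far above the rest. The mean over libraries was 27.7% ± 22.4 (SD, n = 4) against 4.87% ± 4.76 (SD, n = 3), a difference of 22.8 percentage points with a two-sided exact permutation p of 0.0571 and an adjusted p of 0.229 over 4 share tests. That p is the smallest that 4 against 3 libraries can give. Without P3 the difference was 11.9 points. Among beta cells with no second hormone and no acinar sum at or over 1000 it was 2.95 points, with 4 against 2 libraries.

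After STZ no rise or fall of the beta share was detectable. The libraries held 1 of 28 cycling beta cells at D6 (3.57%), 2 of 12 (16.7%) and 1 of 29 (3.45%) at D12, and 1 of 24 (4.17%) at D30. Later libraries held 1 of 19 at D42 (5.26%), 0 of 8 at M2 (which allows up to 37.5%), 4 of 62 at M5 (6.45%) and 1 of 48 at M9 (2.08%). Without implants at month 2, 0 of 4 and 0 of 7 beta cells counted as cycling. All but D12 replicate 1 lay within the range of the controls, and its 12 cells gave an interval of 2.09 to 48.4%. The mean was 5.21% ± 5.02 (SD, n = 8) against 4.87% in controls, a difference of 0.336 points with an exact permutation p of 0.958 (adjusted p 0.958). The difference turned to -1.3 points without D12 replicate 1 and to -2.1 points without Control replicate 3. Raw read file names share prefixes between cells, and the labels do not say what a prefix stands for. Among cells of the prefix that holds both control and STZ cells, the difference was -2.55 points.

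**Figure D1:**
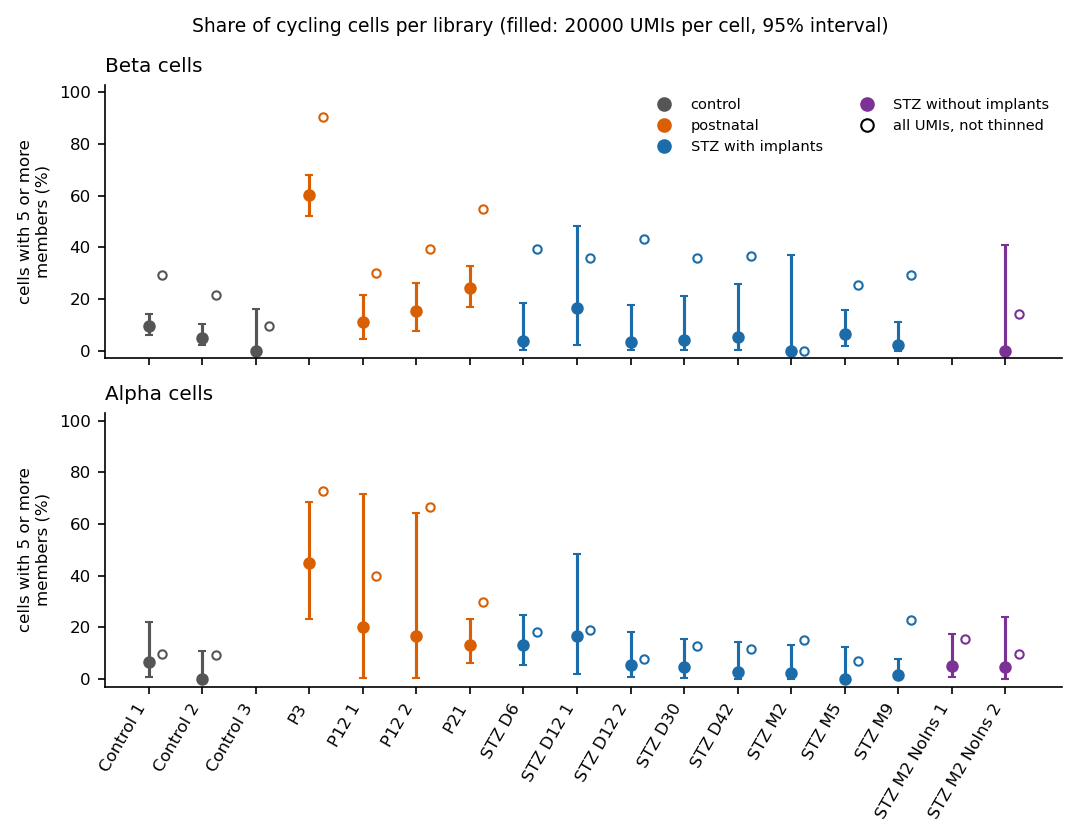
Percent of beta and alpha cells that counted as cycling at 20000 UMIs in each library, with exact 95% binomial intervals for counting error, and without thinning (open circles); libraries with fewer than 5 cells of a class are left out. P3 stands at 60.3% of beta cells and 45.0% of alpha cells, while the beta cells of the control libraries lie between 0 and 9.5%.

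The cells that met the rule were of several kinds. Of the 176 cycling beta cells, 35 had at least 5 mitosis members, 73 at least 5 replication members and 22 both, while 90 reached 5 only by adding genes of different roles; 29 had no mitosis member at all. The median was 7 members. Over all classes, 94 cells had exactly 5 members and lay just inside the rule, 31 of them with no mitosis member, and 208 cells with exactly 4 lay just outside, 109 of them with no mitosis member.

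Counted by at least 5 mitosis members alone, beta cells in or near mitosis were rare in every group. They were 24 of 400 in postnatal libraries (6.0%), 7 of 379 in controls (1.85%) and 4 of 230 after STZ (1.74%). By library they were 4, 3 and 0 cells in the controls, 15 at P3 (9.93%), 1 and 2 at P12, 6 at P21 (5.0%), and 1 each at D6, in D12 replicate 1, at D30 and at M5. On this count the P12 libraries, with 1.59% and 3.03%, overlapped the control libraries, with 1.81% and 2.19%. The postnatal difference was 3.55 points, with an exact permutation p of 0.171. A limit of 10000 on the insulin value was chosen after the values were seen. At or above it the count was 13 of 339 in postnatal libraries (3.83%). It was 3 of 359 in controls (0.836%) and 4 of 178 after STZ (2.25%).

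Cells with at least 20 of the 40 genes, which must hold genes of both roles or nearly all of the mitosis genes, occurred in controls, in young mice and after STZ. There were 46 of them: 24 beta, 5 alpha, 1 delta, 2 PP, 11 acinar and 3 ductal cells. The beta cells came from Control replicates 1 (3 cells) and 2 (2 cells), P3 (8 cells), P12 (1 and 2 cells), P21 (5 cells), D6, D12 replicate 1 and D30 (1 cell each). Their insulin values were 1520 to 11941 in Control replicate 1 and 1035 to 12180 in Control replicate 2. They were 1522 to 21642 at P3, 56028 and 18437 to 24310 at P12, and 3337 to 33293 at P21. The 3 beta cells of the STZ mice had 34, 31 and 26 members beside insulin values of 38897, 10285 and 12065. Beta-class cells with so many members were thus met in 3 of the 4 libraries up to day 30 after STZ, at 1 cell each, and in none after that day. The most members in a single beta cell were 36, in Control replicate 1.

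**Figure D2:**
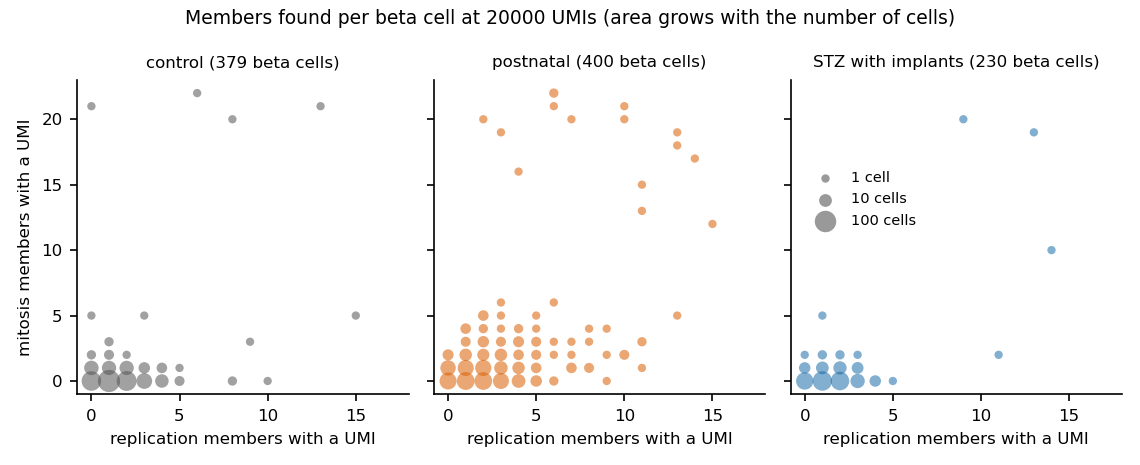
Beta cells of controls, young mice and STZ mice with implants at 20000 UMIs, placed by the number of replication members (x axis) and mitosis members (y axis) with a UMI; the area of a point grows with the number of cells. Most cells lie in the lower left, the lone cells above 5 mitosis members occur in all 3 panels, and young mice fill the range between 0 and 10 replication members.

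Summed over beta cells, the mitosis members were carried by few cells in most libraries. In counts per 1000000 UMIs of the same beta cells (CPM), at all depths, their sum was 280, 159 and 10.9 in Control replicates 1, 2 and 3. It was 775 at P3, 81.8 and 615 at P12 and 511 at P21. After STZ it was 148 at D6, 1543 and 24.3 at D12, 80.4 at D30, 24.3 at D42, 25.3 at M2, 14.7 at M5 and 15.6 at M9. The highest sum of all, in D12 replicate 1, came from 1 cell of 14, which held 1038 of the 1041 UMIs. A single cell also held 90.4% of the sum at D6, 84.9% at D30, 77.9% in Control replicate 2 and 59.8% at P21. At P3 the top cell held 27.7%.

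Sums of replication members varied less between libraries. They were 165, 157 and 83.0 CPM in controls, 547 at P3, 166 and 158 at P12 and 299 at P21. After STZ they ran from 87.8 (D12 replicate 2) to 354 (D12 replicate 1). P3 and P21 lay above all controls, and the P12 libraries lay at the level of Control replicates 1 and 2.

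**Figure D3:**
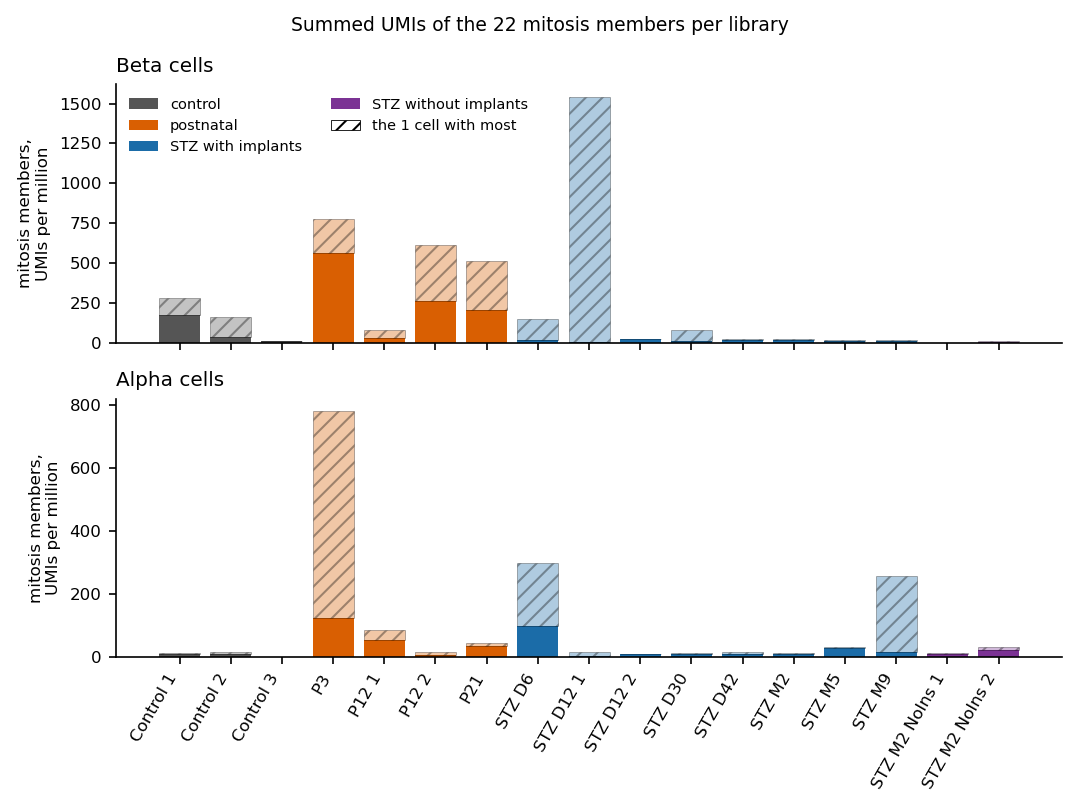
Summed CPM of the 22 mitosis members in the beta cells (top) and alpha cells (bottom) of each library; the hatched part of each bar is held by the 1 cell with most. In beta cells the D12 replicate 1 bar of 1543 is 99.7% hatched and the P3 bar of 775 is 27.7% hatched.

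The fits across all genes used the UMI sums of a library's beta cells (edgeR's quasi-likelihood test, Benjamini-Hochberg adjustment over all genes tested, called under an adjusted p of 0.05). In postnatal against control beta cells, 39 of the 40 members were fitted higher, with a median log2 fold change of 1.22 beside 0.05 over all genes tested, and none was called. The background was as empty, with 3 of 12937 genes called (0.0232%). At an unadjusted p under 0.05, 9 members were higher and none lower, beside 641 higher and 654 lower of the 12937 genes. DESeq2 called 1 member, Aurka, beside 225 genes in all. The median was 1.33 for mitosis and 0.97 for replication members. Other genes of the same processes did the same: 53 of 54 further mitosis genes and 45 of 48 further replication genes were fitted higher, with medians of 1.10 and 0.90 and none called.

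Aurka, the kinase of the spindle poles, had the lowest adjusted p of the members. It stood at 5.41, 4.46 and 1.46 CPM in Control replicates 1, 2 and 3, against 21.7 at P3, 5.56 and 22.9 at P12 and 15.9 at P21. Each postnatal library was above each control, P12 replicate 1 only just. The log2 fold change was 1.80 (SE 0.52), with an adjusted p of 0.254 in edgeR.

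The DNA-cleaving enzyme Top2a stood at 27.7, 17.4 and 0 CPM in controls, 85.7 at P3, 2.23 and 86.6 at P12 and 75.1 at P21. Mki67 stood at 15.4, 9.53 and 0 in controls, 41.9 at P3, 4.45 and 43.3 at P12 and 37.2 at P21. Both were high in 3 postnatal libraries and within the control range in P12 replicate 1, so the groups overlapped. Their log2 fold changes were 1.70 (SE 0.88, adjusted p 0.54) and 1.57 (SE 0.74, adjusted p 0.511) by edgeR. The mitotic kinase Cdk1 had the same pattern, with 20.7, 11.9 and 0 in controls, 52.9 at P3, 1.95 and 33.9 at P12 and 44.2 at P21. Its cyclin Ccnb1 stood at 11.5, 4.95 and 1.46 in controls, 30.3 at P3, 3.06 and 22.1 at P12 and 14.2 at P21, again with P12 replicate 1 among the controls.

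Among replication members Mcm2, a subunit of the helicase ring, stood at 9.84, 12.4 and 1.46 CPM in controls, 61.8 at P3, 12.5 and 14.3 at P12 and 25.2 at P21. P3 stood far above the others, and the P12 libraries barely exceeded Control replicate 2. The adjusted p was 0.386 in edgeR. Pcna stood at 43.9, 51.9 and 21.8 in controls, 108 at P3, 50.9 and 39.8 at P12 and 77.1 at P21, a log2 fold change of 0.59 with an adjusted p of 0.551. In both genes P3 was highest and P21 next. Mcm3 (log2 fold change 2.06) and Mcm6 (1.64), which sit in the same ring, and the helicase partner Cdc45 (1.64) were also among the 9, with adjusted p-values above 0.05; Mcm6 stood at 13.2, 7.72 and 2.18 in controls, 66.3 at P3, 17.3 and 6.18 at P12 and 32.6 at P21.

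Of the remaining pair, Stmn1 stood at 79.9, 33.8 and 0 CPM in controls, 150 at P3, 27.5 and 96.3 at P12 and 136 at P21. Hmgb2 stood at 86.7, 65.4 and 8.74 in controls, 204 at P3, 81.2 and 166 at P12 and 141 at P21. In both genes P12 replicate 1 fell inside the control range and the other 3 postnatal libraries above it. The log2 fold changes were 1.14 (adjusted p 0.635) and 1.23 (adjusted p 0.402) by edgeR.

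When each young group was set against the controls in a fit of all 12 groups, none of the 40 members was called in P3, P12 or P21, beside 1.31%, 1.54% and 0.0359% of all genes. At P3 the nearest was Mcm2, with a log2 fold change of 2.51 (SE 0.62) and an adjusted p of 0.0613 in edgeR; this group is 1 library, assumed to vary like the replicated groups.

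**Figure D4:**
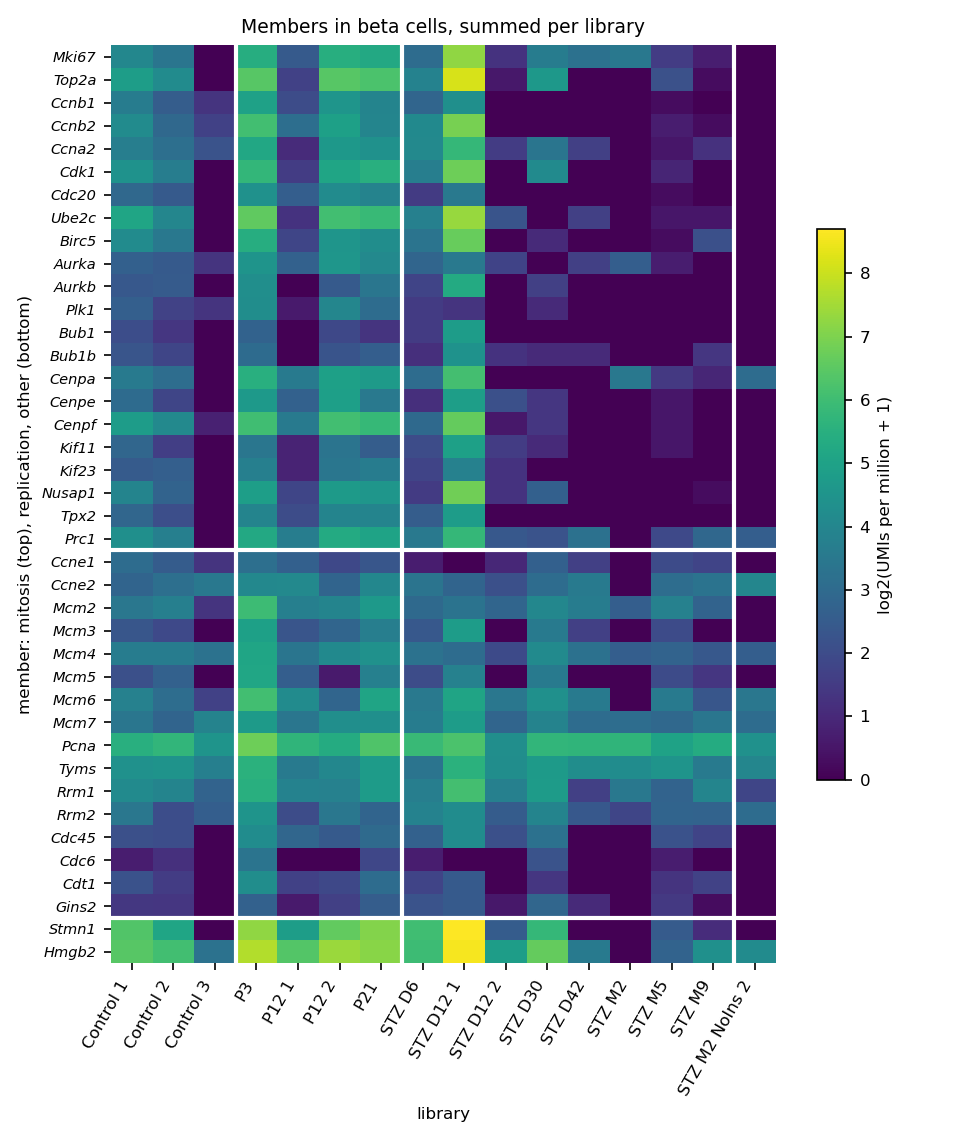
Heatmap of the 40 members in beta cells of 16 libraries, coloured by log2 of CPM plus 1, with mitosis genes at the top, replication genes below and Stmn1 and Hmgb2 at the bottom. P3 and P21 are coloured in nearly every row, D12 replicate 1 is brightest in most mitosis rows, and STZ libraries from day 42 on are dark in most of them.

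After STZ, none of the 26 members that passed the filter on low counts was called in beta cells, beside 256 of 10427 genes (2.46%), and none passed an unadjusted p of 0.05. The fitted changes were higher for 20 of the 26, with a median log2 fold change of 0.36 against -0.01 over all genes. The mean of log2 CPM pointed the other way for 12 of the 26, including 9 of 13 mitosis members, whose median difference of means was -0.91. Top2a had a fitted log2 fold change of 1.26, while its mean log2 value was 2.04 after STZ and 2.65 in controls. In CPM Top2a ran from 0 (D42 and M2) to 289 (D12 replicate 1) over the STZ libraries, Mki67 from 0.676 (M9) to 151, and Cdk1 from 0 to 108, each with its highest value in D12 replicate 1. Without that library 1 member was called, the centromere protein Cenpf, which was then lower after STZ. The share of all genes called in that setting is not given here, and over all alternative settings 84 to 461 genes were called. Cenpf stood at 27.3, 16 and 0.728 in controls, and at 6.77, 97.8 (D12 replicate 1), 0.477, 1.59, 0, 0, 0.426 and 0 after STZ in order of time. None of the members was called at any single time after STZ, beside 0.28% of all genes at D6, 1.25% at D12, 0.416% at D30, 0.481% at D42, 0.244% at M2, 0.66% at M5 and 1.06% at M9, nor without implants at month 2 (1.34%).

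Stmn1 and Hmgb2 were low in the beta cells of the later STZ libraries. Stmn1 stood at 64.6 CPM at D6, 414 and 4.77 at D12, 54.5 at D30, 0 at D42 and M2, 4.69 at M5 and 1.13 at M9. Hmgb2 stood at 60.9, 382, 27.7, 100, 10.6, 0, 5.75 and 19.8 in the same order. For both genes the libraries up to day 30 were higher than those from day 42 on, D12 replicate 2 only just for Stmn1. On a fit against the log2 of days after STZ, 15 of the 17 members tested had a negative slope, while 5020 of the 9918 genes had a positive one. Only 6 of the 22 mitosis members passed the filter on low counts. At D6, in D12 replicate 1 and at D30 a single cell held most of the mitosis UMIs, so these members are not independent of each other. At an unadjusted p of 0.05, 7 members passed, all falling in value, beside 124 rising and 178 falling of the 9918 genes tested. None of the members was called and none of the 9918 genes was (0%). The slope per doubling of time was -1.43 for Stmn1 (adjusted p 0.404), -1.46 for Top2a (adjusted p 0.73), -1.03 for Ccna2 (adjusted p 0.643) and -1.19 for Mki67 (adjusted p 0.767) by edgeR.

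Pcna and Mcm2 did not share that pattern. Pcna stood at 58.4, 74.1, 18.6, 52.4, 50.7, 50.5, 30.9 and 39.7 CPM after STZ, in order of time. Mcm2 stood at 6.77, 8.89, 6.2, 15.3, 11.6, 5.05, 13 and 5.86. Each of the 8 libraries had UMIs of both genes, with no order in time, and the median slope of the replication members was -0.13 beside 0 over all genes.

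Among regulators that open the cell cycle, cyclin D2 was lower after STZ. Its gene Ccnd2 stood at 1778, 1966 and 2102 CPM in control beta cells and at 927, 728, 907, 1250, 787, 1023, 1088 and 684 after STZ. Every STZ library lay below every control, and Ccnd2 fell by a log2 fold change of -1.05 (SE 0.18, adjusted p 0.00298 by edgeR). It was the only gene called among the 19 of 25 regulators of entry tested. In young mice it stood at 1478, 1654, 1783 and 2181, overlapping the controls, with a log2 fold change of -0.32 (adjusted p 0.672). Ccnd1 did not pass the test after STZ (log2 fold change 0.08).

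The inhibitor Cdkn1a (p21) varied widely after STZ. It stood at 78.6, 58.8 and 172 CPM in controls, and at 617 at D6, 259 and 197 at D12, 323 at D30, 65.5 at D42, 12.6 at M2, 262 at M5 and 39 at M9. The libraries up to day 30 all exceeded the controls and later ones lay on both sides, with a log2 fold change of 1.14 (SE 0.69, adjusted p 0.607 by edgeR). Cdkn2a (p16) had 0 UMIs in the beta cells of every library except P21, which had 4. Cdkn1c (p57) had 62 and 11 UMIs in Control replicates 1 and 2, 197 at P3, and 0 in Control replicate 3 and all STZ libraries with implants. Cdk4, the kinase that D cyclins activate, stood at 136, 113 and 99 CPM in controls and at 234, 253, 190 and 184 in young mice. All 4 young libraries lay above the controls, with a log2 fold change of 0.72 and an adjusted p of 0.259.

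Among 23 further mitosis genes tested after STZ, the kinetochore gene Spc25 was the only one called, lower by a log2 fold change of -1.14 (adjusted p 0.0414 by edgeR). Spc25 lies at chr2:69193895-69206194 on the minus strand, 4878 bases from G6pc2 at chr2:69211073-69227841 on the plus strand (GRCm38.p6). G6pc2, a glucose-6-phosphatase subunit of mature beta cells, fell in the same fit (log2 fold change -2.09, adjusted p 0.00148). Whether reads of one gene were counted for the other was not tested.

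Cycling alpha cells were again most frequent at P3. Of P3 alpha cells, 9 of 20 counted as cycling (45.0%, interval 23.1 to 68.5%), beside 1 of 5 and 1 of 6 at P12 and 9 of 69 at P21 (13.0%). Controls held 2 of 30 (6.67%) and 0 of 32 (which allows up to 9.38%). All young libraries exceeded both controls, with a mean of 23.7% ± 14.5 (SD, n = 4) against 3.33% ± 4.71 (SD, n = 2) and an exact permutation p of 0.133 (adjusted p 0.267), the smallest that 4 against 2 can give.

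After STZ the alpha share was 7 of 54 at D6 (13.0%, 5.37 to 24.9%), 2 of 12 and 2 of 37 at D12, and 2 of 44 at D30. It was 1 of 37 at D42, 1 of 40 at M2, 0 of 28 at M5 and 1 of 70 at M9 (1.43%), and 2 of 39 and 1 of 21 without implants. Libraries at D6 and D12 replicate 1 lay above the controls and the other libraries within their range. The difference was 2.44 points, with an exact permutation p of 0.756 (adjusted p 0.958), and it turned to -0.89 without Control replicate 2 and to -3.62 when 3 members were enough.

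The mitosis members of alpha cells came from few cells. Their sum was 12.6 and 13.9 CPM in the controls, 782 at P3 (84.5% in 1 cell), 298 at D6 (67.5% in 1 cell) and 258 at M9 (94.5% in 1 cell). The other STZ libraries with implants ran from 10.2 to 32.4, and P21 stood at 42.3. The M9 cell held 31 members, so such a cell was met in the alpha class as late as month 9.

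None of 23 members tested in alpha cells after STZ was called, beside none of 10745 genes (0%). Of the 23, 18 were fitted higher, beside 5567 of the 10745 genes. In edgeR 5 were higher at an unadjusted p under 0.05 (Cenpa, Cenpf, Nusap1, Top2a and Ube2c), beside 309 genes higher and 158 lower. These 5 had no UMI in either control, so they passed the filter on low counts through the STZ libraries and could not be fitted lower. Top2a and Ube2c had UMIs only at D6 and M9, where a single cell held most of the mitosis UMIs. In young mice, with 2 libraries (P3 and P21) against 2 controls, none of 11 members tested was called beside 7 of 9634 genes (0.0727%). At an unadjusted p under 0.05, 6 members were higher and none lower, beside 311 genes higher and 197 lower. No mitosis member passed the filter on low counts there. Stmn1 stood at 12.6 and 4.37 CPM in control alpha cells, 145 at P3 and 53.1 at P21, with a log2 fold change of 3.21 and an adjusted p of 0.0813 in edgeR. Mcm2 stood at 5.32 and 2.92 in controls against 70.0 and 19.4, and Mcm5 had 0 in both controls against 34.3 and 17.0. In these 3 genes both young libraries were higher than both controls. The same held for Hmgb2, Mcm3, Mcm4 and Rrm1, but not for Pcna, Mcm6, Mcm7 and Tyms. The share of all genes that did so is not given here. DESeq2 called 3 members, Mcm3, Mcm5 and Stmn1, and edgeR called 10 without the filter. The shares over all genes in those settings are not given here.

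Cycling delta cells were 12 of 39 in young mice (30.8%), 15 of 141 after STZ with implants (10.6%), 0 of 20 without implants, and 0 of 5 and 0 of 11 in the controls. By library they were 5 of 9 at P3, 4 of 6 in P12 replicate 1, 3 of 23 at P21, 3 of 24 and 1 of 11 at D12, and 6 of 25 at D30 (24.0%). They were 1 of 26 at D42, 1 of 11 at M2, 1 of 13 at M5, 2 of 22 at M9 and none at D6, so D30 was the highest after STZ. Cycling PP cells were 0 of 13 in young mice, 10 of 143 after STZ with implants (6.99%), 0 of 17 without implants, and 0 of 8 in each of the controls with PP cells. The 10 were 2 of 10 at D6, 2 of 27 in D12 replicate 1, 4 of 17 at D30 (23.5%), 1 of 23 at D42 and 1 of 15 at M9. The intervals allow for up to 20.6% in the 16 control cells of either class. Of the 27 cycling delta cells 1 had at least 5 mitosis members and 14 at least 5 replication members; of the 10 PP cells 2 and 4 did. Acinar-class cells counted as cycling in 61 of 879 cases (6.94%), and at P3 in 11 of 12. No test over libraries was run for these classes.

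Cycling cells held less of their own hormone. In the authors' signal per 100000 UMIs outside the hormone genes, the median insulin value was 15622 in cycling and 24624 in other beta cells. Cycling and other beta cells had medians of 18120 and 27799 in controls, 15527 and 26807 in young mice, and 12065 and 16705 after STZ. Cycling cells were lower in all 3 arms. The same held for Gcg in alpha cells (8692 against 12888), Sst in delta cells (10211 against 13776) and Ppy in PP cells (11884 against 16026). The rule favours this direction, since a cell with less hormone keeps more UMIs for the 40 genes when all its UMIs are thinned together. With cells instead brought to 10000 UMIs outside the hormone genes (added after seeing the data), the medians were 15843 in 118 cycling and 24162 in 911 other beta cells. They were 12180 and 27572 in controls, 16151 and 25741 in young mice, and 12887 and 16606 after STZ with 4 cycling cells. Cycling cells were also lower on that count in Gcg (8485 against 13067), Sst (10211 against 14076) and Ppy (11375 against 16718, with 6 cycling cells). The cycling cells were also deeper, with a median of 78368 against 59378 UMIs per beta cell.

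The share of cycling cells was highest in the beta cells with least insulin. It was 19 of 38 cells (50.0%) at an insulin value of 1000 to 3000, 26 of 102 (25.5%) at 3000 to 10000, 70 of 255 (27.5%) at 10000 to 20000 and 61 of 625 (9.76%) at 20000 or more. At 10000 UMIs outside the hormone genes the counts were 16 of 39, 17 of 109 (15.6%), 46 of 255 (18.0%) and 39 of 626 (6.23%) in the same order. Krt19, a keratin that marks duct cells, had a UMI in all 19 cycling cells of the lowest range and in 11 of its 19 other cells. In the highest range it had a UMI in 32.8% of cycling and 12.1% of other cells. In the ranges between, it was in 65.4% against 22.4% and in 58.6% against 14.1% of cells. Krt19 was thus more frequent in the cycling cells at each level of insulin, and its part in the share was not tested.

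Within libraries, cycling beta cells were compared with the other beta cells for the genes that had not chosen them, in the 6 libraries with at least 5 cycling beta cells (165 cycling and 593 other cells, all at 20000 UMIs). These are 2 control and 4 postnatal libraries, with none of STZ mice. Of 10598 genes outside the 40, edgeR called 667 (6.29%), 493 higher (4.65%) and 174 lower (1.64%). Of 52 further mitosis genes tested 50 were higher, 42 of them higher in all 6 libraries. Cks2, a small partner of Cdk1, had 357 UMIs in cycling and 33 in other cells (log2 fold change 5.45, adjusted p 1.95e-24). Pbk, a mitotic kinase, had 244 and 14, and Hmmr, which binds the spindle, had 172 and 7. Mxd3 had 44 and 0 UMIs, which with a floor of 3 UMIs over the other cells is at least 52.7-fold higher, and the chromosome motor Kif2c had 32 and 0, at least 38.3-fold higher. The 10 genes with the largest fitted change were Mxd3, Ska1, Cep55, Kif2c, Troap, Kif4, Aspm, Ckap2l, Cdc25c and Hmmr, of which 7 had 0 UMIs in the other cells and 7 stood on the list of further mitosis genes. Aspm had 80 UMIs in cycling cells and 1 in other cells.

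Replication genes outside the 40 followed less closely, with 22 of 40 tested called, all higher. Among those with the largest change were Clspn (30 UMIs in cycling and 2 in other cells), the histone chaperone Asf1b (62 and 6), Uhrf1, which carries DNA methylation through replication (59 and 3), and the chromatin remodeller Hells (132 and 11). Lig1, which seals replicated DNA, had a log2 fold change of 2.89. Dut (0.84) and Nasp (0.64), which were also called, rose least among those named. Among regulators of entry, Ezh2 (2.09), Cdkn2c (1.84) and Cdkn2d (1.40) were higher, and Ccnd2 was lower in 6 of 6 libraries (log2 fold change -0.43, SE 0.10, adjusted p 0.00221 by edgeR). Cdk4, Ccnd1 and Cdkn1a did not pass the test, with log2 fold changes of 0.36, 0.31 and 0.11.

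Genes of mature beta cells were lower in the cycling cells, which the rule picks more readily where insulin is low. Of 14 tested 9 were called, all lower: Ins1 (log2 fold change -0.56, adjusted p 3.96e-08), Ins2 (-0.55), Iapp (-0.48), the hormone Ucn3 (-0.55), G6pc2 (-0.64), the channel Trpm5 (-0.89), Cox6a2 (-0.81), the glucose transporter Slc2a2 (-0.53) and the zinc transporter Slc30a8 (-0.54). Duct cell markers were higher in 8 of 9 tested, with Spp1 at 2.90 (5968 UMIs in cycling and 6552 in other cells), Krt19 at 2.30 (498 and 446), Sox9 at 2.23 and Anxa2 at 3.23. Krt7 was the exception, at -0.22. None of 12 acinar, 7 alpha or 3 immune markers tested was called, whereas the stromal genes Sparc (3.13) and Rgs5 (3.24) and the delta genes Cd24a (2.19) and Hhex (1.52) were higher and Frzb (-0.54) lower, of 6 delta markers tested. Of 4 PP markers tested, Tspan8 (0.80, adjusted p 0.00708 by edgeR) was higher.

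Restricted to beta cells with an insulin value of at least 10000 (123 cycling and 554 other cells, a limit chosen after the values were seen), 162 genes were called. Of further mitosis genes 37 of 45 were higher, of replication genes 16 of 38, and of maturity genes 9 of 14 were lower, with Ins1 at -0.36, Ucn3 at -0.37, G6pc2 at -0.46 and Trpm5 at -0.72. Duct markers were higher in 4 of 8 (Spp1 2.69, Krt19 1.79, Sox9 3.02, Anxa2 3.89), delta markers in 4 of 6 (Cd24a 2.25, Hhex 3.79, Sst 0.72, Rbp4 0.58) and PP markers in 1 of 3 (Pyy 0.46), while none of 20 regulators of entry was called, with Ccnd2 at -0.29 (adjusted p 0.129). The part that cells with duct, delta or PP markers had in the fall of the maturity genes was not tested.

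The genes most reduced in cycling cells were led by a histone H4 gene, Hist2h4, with 11 UMIs in cycling and 245 in other cells (log2 fold change -2.52). Rpusd3 (-2.37), Cables2 (-1.79), 9130023H24Rik (-1.74), 2900005J15Rik (-1.43), Stk38l (-1.35), Usp35 (-1.20), Hist1h4h (-1.15) and Phf21a (-1.10) followed. Near-identical histone copies can share reads, so the assignment of Hist2h4 and Hist1h4h is uncertain.

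**Figure D5:**
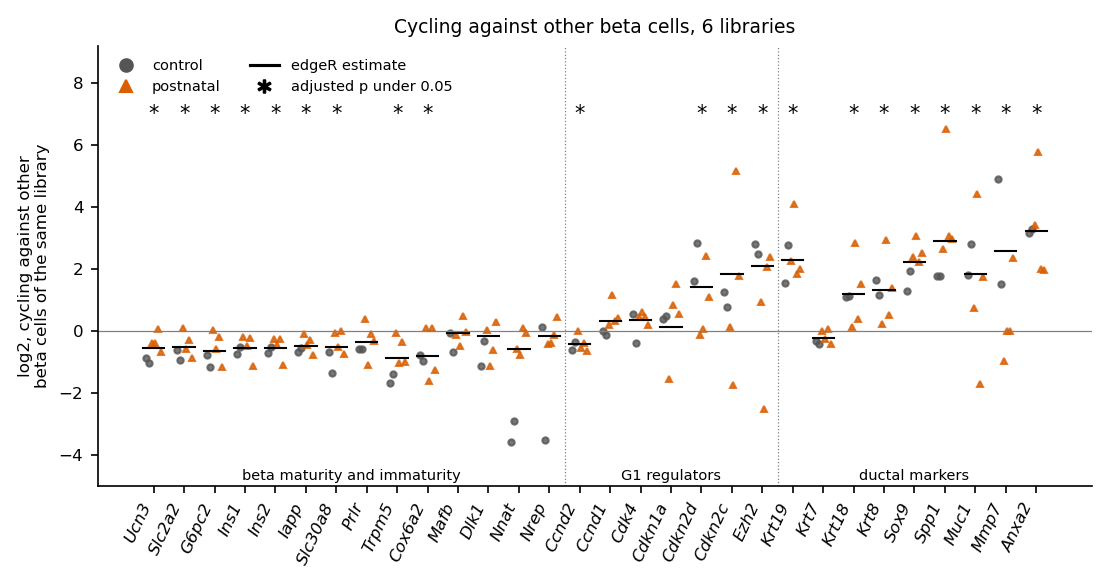
Log2 fold change (y axis) of beta maturity genes, regulators of entry and duct markers between cycling and other beta cells of the same library; points are the 6 libraries, the black line is the edgeR estimate and a star marks an adjusted p under 0.05. Ins1 (-0.56), Ucn3 (-0.55) and Ccnd2 (-0.43) lie below 0 and 8 of 9 duct markers above.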

How the data were processed

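The authors deposited a UMI count table and a normalized signal table of the same cells. UMI-tools 0.5.0 is among the tools that the submitters' processing notes name, beside SAMtools 1.3.1, the aligner TopHat2 2.1.0, the counter featureCounts 1.5.3 and the build mm10; the annotation is not given in the sources used here. The deposited signal equals UMIs per 100000 UMIs outside 8 hormone genes (all nonzero values within 0.01), and set the cell classes at a value of 1000. The table holds no mitochondrial gene by symbol. The members and gene lists were chosen with earlier results of these data known. Named with values were Mki67, Top2a, Ccnb1, Cdk1, Mcm2, Pcna, Stmn1 and Hmgb2, called genes, and 6 regulators of entry; Aurka, Mcm3, Mcm5, Mcm6, Cdc45 and Cenpf were picked after their values were seen. In cycling against other beta cells, the 10 genes with the largest change each way, the maturity genes and, per list, the 6 largest were named; Cks2, Pbk, Lig1, Dut and Nasp were picked later. Some genes that these rules would name are not reported here.

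Counts of each cell were thinned at random (seed 1) to 20000 UMIs for shares. Shares were compared over libraries with at least 5 cells of the class by exact permutation (SciPy 1.17.1). Counts at full depth were summed per library and class (at least 5 beta or 10 alpha cells), normalized by TMM, filtered on low counts and fitted by edgeR 4.0.16 (R 4.3.3), with DESeq2 1.42.0 as an alternative; the scripts were tested on simulated data. Mean log2 CPM used a prior count of 2. Cell types were not corrected for free RNA and doublets were not called. No cells shared a raw file or held identical counts.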

Additional observations from a re-analysis of the deposited data

Results flagged for a closer look

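Values of single libraries far from the rest of their group were sought with Dixon's test in 36 groups of 4 to 10 libraries, where chance gives about 1 in 20; 11 were found, 8 of them in 1 library. In the beta cells of STZ D12 replicate 1, the cycling share was 16.7% where the next STZ library had 6.45%. The summed mitosis members there stood at 1543 CPM (next 148), Mki67 at 151 (next 11.6), Top2a at 289 (next 23.8), Ccnb1 at 19.3 (next 6.15), Cdk1 at 108 (next 16.9), Stmn1 at 414 (next 64.6) and Hmgb2 at 382 (next 100). In that library 1 cell held 99.7% of the mitosis UMIs. Among the 4 postnatal libraries, P3 stood apart in the summed mitosis members of alpha cells, at 782 CPM where the next had 86.1. P12 replicate 1 stood apart below the others in beta cells, with Mki67 at 4.45 CPM where the next had 37.2, and Top2a at 2.23 where the next had 75.1.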

How the results depend on the processing

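The difference in the cycling share of beta cells after STZ (0.336 points) changed sign without Control replicate 3 (-2.1) and without STZ D12 replicate 1 (-1.3), and ran from -2.1 to 2.65 points over the libraries left out in turn, the highest without Control replicate 1. It was also below 0 at 10000 UMIs outside the hormone genes (-1.18) and among cells of the shared file name prefix (-2.55, 3 STZ libraries and 1 control). Both were added after seeing the data. That of alpha cells (2.44 points) ran from -0.89 (without Control replicate 2) to 5.78 (without Control replicate 1), and was -3.62 at 3 members and -0.362 at 10000 UMIs outside the hormone genes. The postnatal differences stayed above 0 in every alternative run, from 2.95 to 34.4 points in beta and from 3.75 to 42.8 points in alpha cells.

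Members called after STZ in beta cells ran from 0 to 1 over libraries left out, the 1 without STZ D12 replicate 1. In postnatal beta cells DESeq2 called 1. In postnatal alpha cells the count was 10 with no filter, 3 by DESeq2, and 0 to 18 over libraries left out, the 18 without P21. Without P21 the young alpha group was P3 alone, where 1 cell held 84.5% of the mitosis UMIs. Calls over all genes in postnatal alpha cells were also most numerous in that setting. The 18 is therefore not read as a difference particular to the members or to young mice. Over all genes, calls ranged from 84 to 461 in beta cells after STZ and from 0 to 225 in postnatal beta cells. Genes called between cycling and other beta cells were 444 at 8 members, 162 at an insulin value of 10000, and 429 (without P21) to 665 (without P3) over libraries left out. The cause of these changes was not tested.

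Replicate numbers did not pair the samples: deviations of same-numbered libraries correlated by -0.05 to 0.24. With the replicate number as a block, the permutation p was 0.375 for beta and 0.875 for alpha cells after STZ and 0.25 for both postnatal shares, and 84 genes were called in beta cells after STZ. The alternative with no second hormone gave values only in postnatal beta cells, where it called 0 members. Single groups had no alternative. Counts of few beta cells limit the STZ libraries: 8 cells at M2 allow a share of up to 37.5%.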

Other observations

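The acinar-class cells that counted as cycling were of several kinds, by a split chosen after the values were seen. Of 60 acinar-class cells with at least 5 of the immune markers, 16 counted as cycling (26.7%, exact 95% interval 16.1 to 39.7%); 12 of these held Ptprc, the pan-leukocyte antigen CD45, and 10 came from STZ D12 replicate 1. Of 47 further cells with an acinar sum under 10000, 15 did (31.9%, 19.1 to 47.1%), 11 of them with Krt19. Of the 772 cells with an acinar sum of at least 10000, 30 did (3.89%, 2.64 to 5.5%). In P3, 7 of 8 cells with the high acinar sum counted as cycling, and their library is 1 sample. Cells of classes outside the islet hormones were few: 5 of 13 ductal-class, 2 of 6 immune-class and 1 of 2 endothelial-class cells counted as cycling, and 3 of the ductal-class cells held at least 20 members.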
